A study of Macaca mulatta with 51 samples.

Results

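The genes followed here carry the signals of IL10, TGF-beta, IL4 and IL13: the ligands IL10, TGFB1, TGFB2 and TGFB3, the receptor chains IL10RB, IL4R and IL13RA1, the transcription factor STAT6 and the feedback inhibitor SOCS3. They were chosen by symbol from a list of 10 genes. 9 of the 10 were analysed, out of 16033 genes in the count table, and the remaining gene of the list, IL10RA, was not analysed here. The 9 genes passed the filter on low counts in both tissues.

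IL10 is made by macrophages and by T and B cells and restrains inflammatory cytokine production. Its receptor joins IL10RA to IL10RB, a chain shared with related cytokines, and acts through JAK1, TYK2 and STAT3, with SOCS3 among the genes that STAT3 induces. The TGF-beta ligands are secreted in latent form, bind serine/threonine kinase receptors and act through SMAD proteins, with matrix genes such as the collagens among their targets. IL4 and IL13 act through IL4R paired with IL13RA1 or with the common gamma chain and through STAT6, a route known in AT for alternatively activated macrophages.

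Biopsies of subcutaneous abdominal adipose tissue (AT) and of gastrocnemius skeletal muscle (SM) came from 10 diet-induced obese rhesus macaques, males and ovariectomized females aged 11 to 22 years, that were kept on a high-fat diet. Animals were sampled pre-treatment, post-treatment after 12 weeks of daily subcutaneous native human FGF21 in increasing doses, and at washout, 16 weeks after the last treatment. AT gave 10 pre-treatment, 9 post-treatment and 8 washout libraries, and SM gave 6, 8 and 7. No animals were left untreated, so that FGF21, weight loss and time cannot be told apart, and a biopsy holds several cell types, so that fewer cells of a type and less RNA per cell cannot be told apart either. The question was how these genes differed between time points within the same animals, and whether the 2 tissues differed.

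Total counts per library ranged from 15756491 to 23940980 in AT and from 14455195 to 21740711 in SM. Levels are given as CPM, the count of a gene scaled to library size with TMM factors set within a tissue, and differences as log2 fold changes with their standard error (SE) from edgeR's quasi-likelihood test with animal in the model. A gene was called where the adjusted p, by Benjamini-Hochberg over all genes tested in the tissue, was under 0.05 and the log2 fold change lay beyond 0.26. Labelled tissues were checked against marker genes. The 11 muscle fibre markers analysed summed to 62620 to 279700 CPM in SM and to 67.53 to 521.6 CPM in AT, and the 4 adipocyte markers to 9439 to 32430 CPM in AT and 36.74 to 1174 CPM in SM. Post-treatment SM libraries of animals 20275, 21189, 21866 and 24849 stood apart, with the 4 lowest fibre marker sums of all SM libraries, 62620 to 130600 CPM. Their progenitor and fibroblast marker sums were 4811 to 17160 CPM, against 271.5 to 592.9 CPM in the other 4 post-treatment SM libraries. Those sums were 485.6 to 4953 CPM in SM pre-treatment and 409.9 to 4541 CPM at washout.

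IL10 and IL13RA1 rose in AT post-treatment, and 5 of the 9 genes, IL10, IL10RB, TGFB1, IL4R and IL13RA1, fell from post-treatment to washout. The shares of all genes called in these 2 comparisons, in either direction, were 15.5% and 35.4%. Compared to pre-treatment, 0 of the 9 were called in AT at washout. In SM 0 of the 9 were called between any 2 time points. Before treatment 5 genes were higher in AT than in SM and TGFB2 was lower, but 77.7% of all genes tested differed between the tissues. The tissue difference is therefore no result about the genes as a group.

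**Figure D1:**
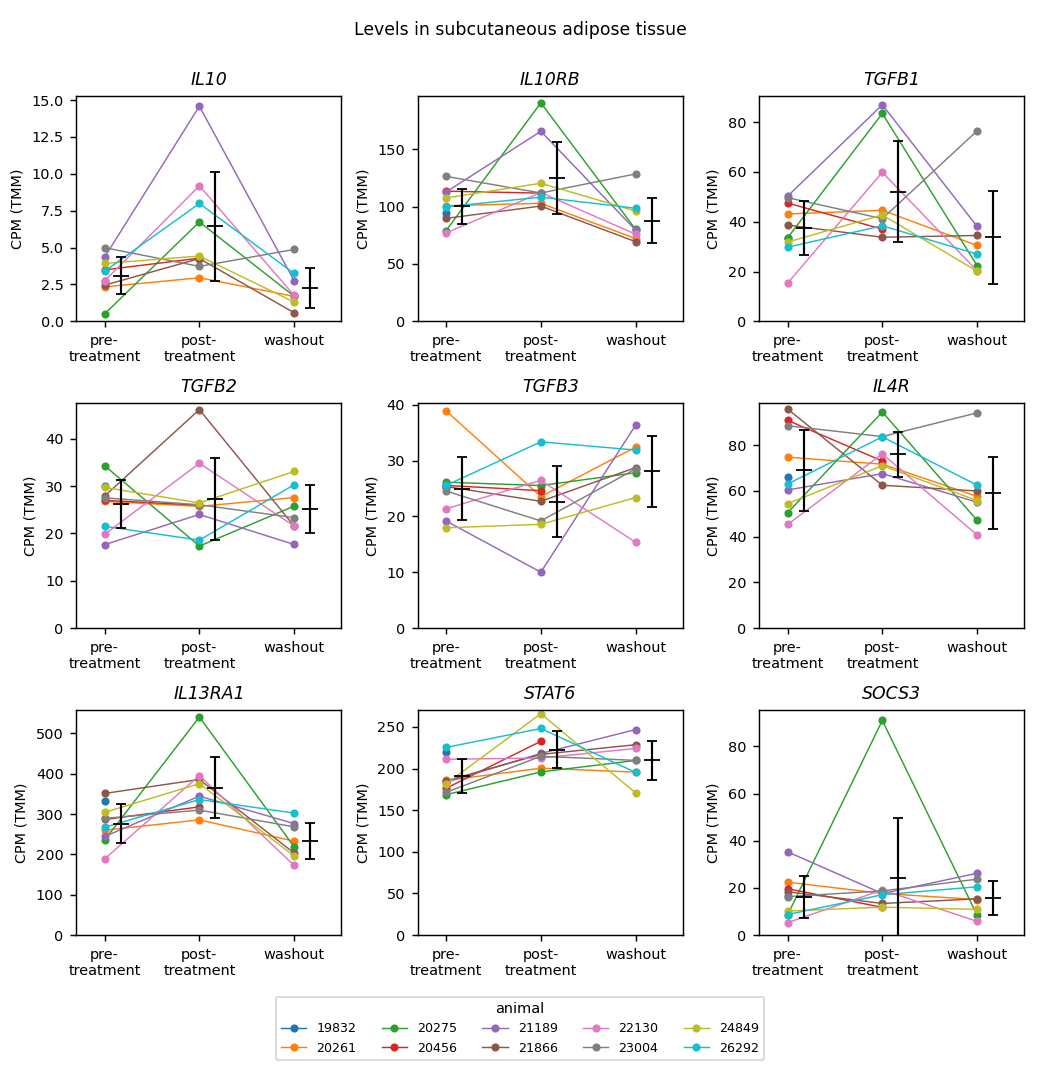
Levels of the 9 genes in AT in CPM (vertical axis, TMM-normalised, from 0) at the 3 time points, with 1 coloured line per animal and black bars for the group mean ± SD (n = 10, 9 and 8). IL13RA1 was higher post-treatment in 9 of 9 animals sampled at both times and lower at washout in 8 of 8, and SOCS3 reached 90.96 CPM in the post-treatment library of animal 20275.

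Of all genes tested in AT, 15.5% were called between post- and pre-treatment, and 6.98% were called higher post-treatment. Of the 9 genes, 2 were called, both higher. 8 of the 9 had a positive log2 fold change, with a median of 0.31 against 0.029 over all genes tested, and 5 had an unadjusted p under 0.05. Read against 15.5%, a count of 2 in 9 is no result about the genes as a group.

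IL10, the ligand with the largest difference, stood at 0.5023 to 4.989 CPM pre-treatment with a median of 3.07 CPM. Post-treatment it stood at 2.95 to 14.58 CPM with a median of 4.424 CPM. The means were 3.09 ± 1.25 CPM (SD, n = 10) and 6.46 ± 3.70 CPM (SD, n = 9). The ranges overlapped, with post-treatment animals 21189, 22130, 26292 and 20275 above every pre-treatment library. IL10 was higher post-treatment in 8 of 9 animals, with animal 23004 as the exception, and the log2 fold change was 1.03 (SE 0.306, edgeR adjusted p = 0.0311). These levels rest on 10 to 97 counts per library pre-treatment and 57 to 246 post-treatment, so counting error is a part of the spread in the lowest libraries.

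IL13RA1, the chain that binds IL13 and pairs with IL4R, ranged from 188.8 to 351 CPM pre-treatment with a median of 276.8 CPM. Post-treatment the range was 285.4 to 540.3 CPM and the median 344.2 CPM. It was higher in 9 of 9 animals, by 0.0982 to 1.197 on the log2 scale within an animal. The log2 fold change was 0.44 (SE 0.133, edgeR adjusted p = 0.0325), with means of 276 ± 47.8 CPM (SD, n = 10) and 365.5 ± 75.1 CPM (SD, n = 9). Animal 20275 had the highest post-treatment level and the next was animal 22130 at 395.4 CPM.

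Both calls depended on single animals. Neither passed without animal 20275, 21189 or 22130, or without only the pre-treatment library of animal 20275. IL13RA1 also failed without animal 20261, and IL10 without animal 21866 or 26292. Over 23 alternative settings the adjusted p ranged from 0.00989 to 0.109 for IL10 and from 0.0149 to 0.13 for IL13RA1, and the log2 fold change stayed positive in each. Within the 6 animals with both libraries in the last of 3 number series of library identifiers, a possible batch, each gene was higher post-treatment in 6 of 6, but in a fit on that series alone neither was called (adjusted p = 0.0641 for IL10 and 0.13 for IL13RA1).

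The receptor chain IL10RB went from a mean of 100.2 ± 15.6 CPM (SD, n = 10) to 124.9 ± 31.3 CPM (SD, n = 9) and was higher in 7 of 9 animals. Its log2 change of 0.31 (SE 0.125) was not called (edgeR adjusted p = 0.0934). The post-treatment libraries of animals 20275 and 21189, at 190.5 and 165.7 CPM, lay above the others, which ended at 120.4 CPM. IL4R, the signalling chain shared by IL4 and IL13, stood at 45.32 to 95.71 CPM pre-treatment and 62.43 to 94.42 CPM post-treatment. It was higher in 5 of 9 animals, with a log2 change of 0.18 (SE 0.128, adjusted p = 0.336).

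TGFB1, the ligand best known from immune cells and fibrosis, was at 15.32 to 50.27 CPM pre-treatment and 33.77 to 87.01 CPM post-treatment, with medians of 36.18 and 42.75 CPM. It was higher in 6 of 9 animals, with animals 21189, 20275 and 22130 above every pre-treatment library. The log2 fold change of 0.50 (SE 0.231) was not called (edgeR adjusted p = 0.133). TGFB2 and TGFB3, the other ligands of the family, differed by 0.07 (SE 0.159, adjusted p = 0.786) and -0.13 (SE 0.165, adjusted p = 0.602), each lower in 6 of 9 animals. Their groups overlapped broadly, TGFB2 at 17.64 to 34.3 CPM before and 17.34 to 46.16 CPM after treatment and TGFB3 at 17.96 to 38.9 CPM and 10.02 to 33.35 CPM.

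STAT6, the transcription factor of IL4 and IL13, had the narrowest spread of the 9 genes in AT relative to its mean. It stood at 168.7 to 225.5 CPM pre-treatment, 196 to 266 CPM post-treatment and 170.8 to 246.9 CPM at washout. It was higher post-treatment in 9 of 9 animals, and the adjusted p of 0.0428 passed, but the log2 fold change of 0.25 (SE 0.0811) lay under the limit of 0.26. SOCS3, the feedback inhibitor of cytokine receptors, ranged from 5.258 to 35.28 CPM pre-treatment. Post-treatment 8 animals stood at 11.77 to 19.14 CPM and animal 20275 at 90.96 CPM, and the log2 fold change of 0.50 (SE 0.395) was not called (adjusted p = 0.392), with 5 of 9 animals higher.

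Between post-treatment and washout 35.4% of the genes tested in AT were called, and 17.8% of the genes tested were called lower at washout. Of the 9 genes 5 were called, each lower. The median log2 fold change of the 9 was -0.50, against -0.0021 over all genes tested. IL10 stood at 0.5814 to 4.87 CPM at washout with a median of 1.729 CPM and a mean of 2.24 ± 1.34 CPM (SD, n = 8). It lay under its post-treatment level in 7 of 8 animals, again with animal 23004 as the exception, and the log2 fold change was -1.58 (SE 0.33, edgeR adjusted p = 0.00128). The post-treatment and washout ranges of IL10 overlapped between 2.95 and 4.87 CPM.

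IL13RA1 at washout ranged from 172.6 to 302.4 CPM, below the post-treatment level in 8 of 8 animals (log2 fold change -0.65, SE 0.14, adjusted p = 0.00156). IL10RB was at 69.42 to 128.5 CPM and was lower in 7 of 8 (-0.51, SE 0.131, adjusted p = 0.00514). In each of 23 alternatives IL10 and IL10RB were called lower, and in 22 of 23 IL13RA1 was, the exception being the fit on the last identifier series (adjusted p = 0.0743). Post-treatment means against washout means were 365.5 ± 75.1 against 233.8 ± 44.8 CPM for IL13RA1 and 124.9 ± 31.3 against 87.6 ± 19.6 CPM for IL10RB (SD, n = 9 and 8).

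TGFB1 fell by 0.71 on the log2 scale (SE 0.243, edgeR adjusted p = 0.0271), from a mean of 52.0 ± 20.3 CPM (SD, n = 9) to 33.7 ± 18.5 CPM (SD, n = 8). It was lower in 6 of 8 animals; at washout 7 libraries stood at 20.16 to 38.15 CPM and animal 23004 at 76.52 CPM. IL4R fell by 0.38 (SE 0.133, adjusted p = 0.0298) and was lower in 7 of 8, with washout levels of 40.73 to 62.47 CPM in 7 libraries and 94.03 CPM in animal 23004. The calls of TGFB1 and IL4R were the less firm ones. Without the term for animal, 3 genes were called instead of 5 and these were the pair lost (adjusted p = 0.0637 and 0.0642). With the identifier series in the model both calls were lost as well (TGFB1 -0.46, adjusted p = 0.0688; IL4R -0.30, adjusted p = 0.107). Both also failed without animal 20275, 21189, 22130 or 24849, and IL4R without animal 20261 or 26292.

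TGFB3 differed from these genes in sign. It stood at 15.37 to 36.32 CPM at washout, higher than post-treatment in 6 of 8 animals, with a log2 change of 0.34 (SE 0.174, adjusted p = 0.135). Without animal 22130, the 1 animal with a washout level under 20 CPM, it was called higher (0.49, adjusted p = 0.0319). TGFB2 (-0.10, SE 0.167), STAT6 (-0.08, SE 0.085) and SOCS3 (-0.50, SE 0.406) were not called, with adjusted p of 0.659, 0.455 and 0.347.

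At washout compared to pre-treatment 20.5% of the genes tested in AT were called and 0 of the 9 genes, of which 0 had an unadjusted p under 0.05 in edgeR. DESeq2 and limma also called 0 of them. The log2 fold changes lay between -0.56 (IL10, SE 0.342, adjusted p = 0.265) and 0.20 (TGFB3, SE 0.172, adjusted p = 0.431). IL10 was lower in 7 of 8 animals, with animal 20275 as the exception. Over 23 alternatives its log2 fold change lay between -0.88 and -0.41 and was called in 0. STAT6 was at 0.16 (SE 0.0847, adjusted p = 0.178), higher in 6 of 8 animals, and was called (0.28, adjusted p = 0.0369) where libraries were scaled by their total alone, which moved the median of all genes from -0.0232 to 0.0839. An approximate interval of 2 SE to either side of the IL10 value reaches past 0, so a difference was not detectable at this number of animals.

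Macrophage markers in AT moved with some of these genes, but not with TGFB2, TGFB3 or STAT6. The 18 markers analysed, which include CD68, CD14, CD163 and the C1Q chains, summed to 945.9 to 3459 CPM in AT pre-treatment, 1328 to 7684 CPM post-treatment and 654.8 to 3759 CPM at washout, and each of the 18 had a median above 0 in AT. 17 of 18 were positive post-treatment with 5 called higher, and 17 of 18 were called lower from post-treatment to washout. At washout compared to pre-treatment 18 of 18 were negative and 6 were called lower. Markers of T cells, another source of IL10 and TGFB1, summed to 82.92 to 247.8 CPM, 115.7 to 419.8 CPM and 56.53 to 223.3 CPM at the 3 time points. In AT CD4 had a median of 103 CPM, CD8B 15.6 CPM and the other T cell markers 5.67 CPM or less. That sum therefore mostly follows 1 gene, CD4. Of the 10 T cell markers 1 was called higher and 1 lower post-treatment, and 3 lower and 1 higher from post-treatment to washout.

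Across the 9 animals with both libraries, the change of each gene from pre- to post-treatment was set against the mean log2 change of the macrophage markers, which ranged from -0.55 in animal 20456 to 2.29 in animal 20275. The 9 relations are adjusted together by Benjamini-Hochberg, with two-sided exact permutation tests over the animals. How many of all genes follow the markers as closely was not computed, so the values are no result particular to these genes. TGFB1 had Pearson's r = 0.948 (exact p = 0.000154, adjusted 0.000694) and Spearman's rho = 0.967 (exact p = 0.000165, adjusted 0.00149). IL13RA1 had r = 0.932 (exact p = 9.92e-05, adjusted 0.000694) and rho = 0.833 (exact p = 0.00827, adjusted 0.0248). For IL4R r was 0.919 (exact p = 0.000708, adjusted 0.00159) and rho 0.917 (exact p = 0.00131, adjusted 0.0059).

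IL10RB gave r = 0.871 (exact p = 0.000568, adjusted 0.00159) and rho = 0.783 (exact p = 0.0172, adjusted 0.0388). For IL10 r was 0.833 (exact p = 0.00319, adjusted 0.00574), but rho was 0.7 (exact p = 0.0433, adjusted 0.0779). When the 2 animals farthest from the median marker change, 20275 and 22130, were left out, r was 0.987 for TGFB1, 0.886 for IL13RA1, 0.797 for IL4R, 0.749 for IL10RB and 0.606 for IL10. Within the 6 animals of the last identifier series, r was 0.991 for TGFB1 (exact p = 0.00139), 0.938 for IL13RA1 (exact p = 0.00556), 0.91 for IL4R (exact p = 0.025), 0.883 for IL10RB (exact p = 0.0167) and 0.823 for IL10 (exact p = 0.0514), and the other 3 animals were too few for a value of their own.

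SOCS3 had r = 0.753 (exact p = 0.0162, adjusted 0.0244) with rho = 0.617 (exact p = 0.0857, adjusted 0.129), and r fell to 0.107 without animals 20275 and 22130, so the relation rests on those 2 animals. Within the last series its r was 0.728 (exact p = 0.122). TGFB2 (r = -0.202, exact p = 0.603; rho = -0.217, exact p = 0.581), TGFB3 (0.188, exact p = 0.626; 0.283, exact p = 0.463) and STAT6 (-0.375, exact p = 0.322; -0.383, exact p = 0.312) had no relation past an adjusted p of 0.05, their adjusted values being 0.402 or more. Gene and marker levels come from the same libraries and share their scaling, and the part of macrophage number in the gene changes was not tested.

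**Figure D2:**
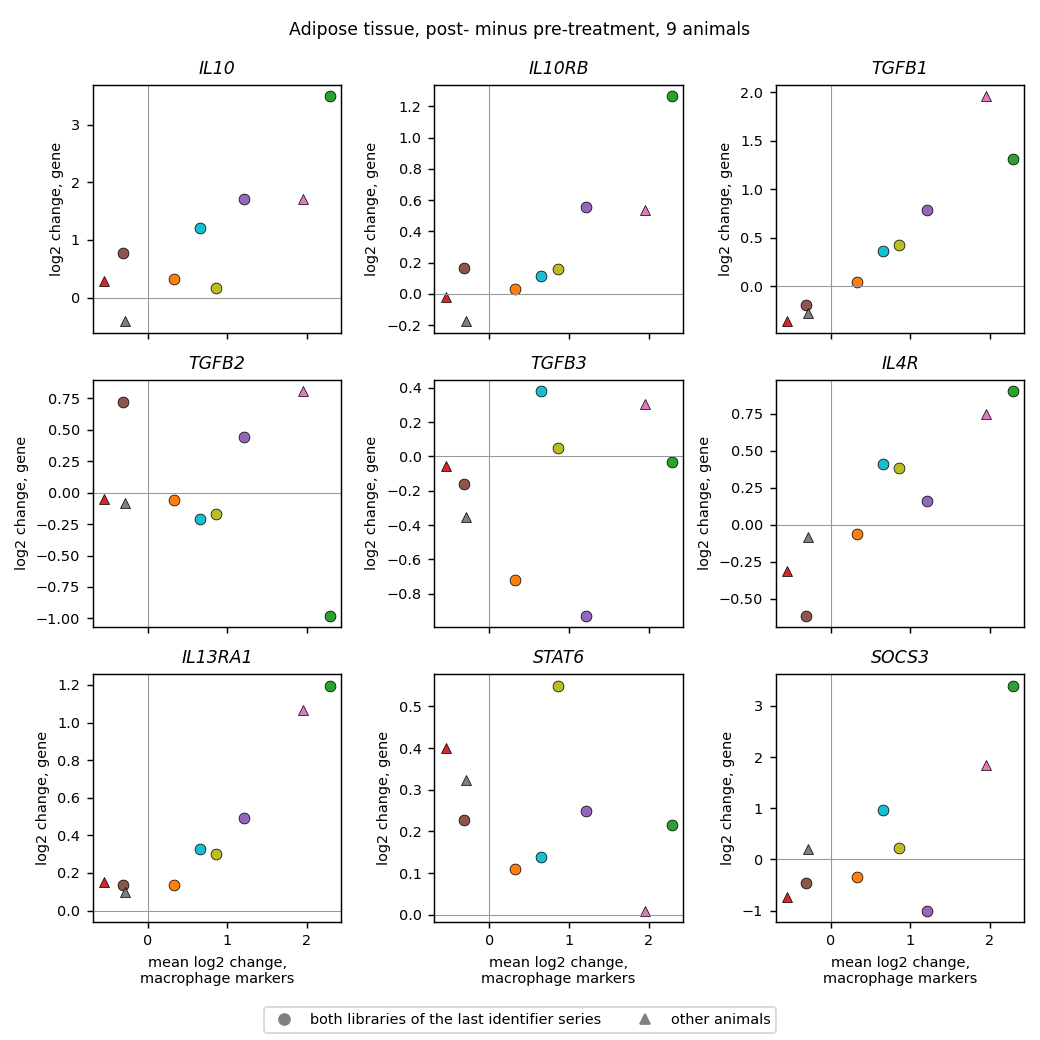
Log2 change of each of the 9 genes from pre- to post-treatment in AT (vertical axes) against the mean log2 change of 18 macrophage markers (horizontal axes), with 1 point for each of 9 animals, coloured by animal, circles for the 6 animals with both libraries in the last identifier series and triangles for the other 3. TGFB1 and IL13RA1 line up with the markers (r = 0.948 and 0.932), while the STAT6 changes, each above 0, do not (r = -0.375).

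Over the 27 AT libraries, levels of some of the genes moved with each other. As a description over libraries that share animals, Spearman's rho was 0.872 between IL10 and IL10RB, 0.802 between IL10RB and TGFB1 and 0.752 between TGFB1 and IL4R, while the lowest was -0.42, between TGFB2 and STAT6. The genes whose log2 CPM was most like that of IL10, among 12138 genes, were CTSS, which encodes the lysosomal protease cathepsin S (rho = 0.946), DRAM2 (0.941) and GNPDA1 (0.937). For TGFB1 they were ARPC1B, a subunit of the actin-branching Arp2/3 complex (0.943), the tyrosine kinase gene SRC (0.933) and RHOG (0.922). For STAT6 the closest were BEX4 (0.779) and the ribosomal protein genes RPS16 (0.759) and RPL26 (0.749), all of lower likeness than those of IL10 and TGFB1.

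In SM, IL10 was close to the detection limit. It had 0 to 26 counts per library, with means of 0.432 ± 0.331 CPM pre-treatment (SD, n = 6), 0.350 ± 0.371 CPM post-treatment (SD, n = 8) and 0.278 ± 0.501 CPM at washout (SD, n = 7). In 2 post-treatment and 3 washout libraries it had 0 counts, which allows, at 3 counts, up to 0.162 to 0.207 CPM by counting error alone. The highest SM library, at washout in animal 22130, stood at 1.374 CPM, and the next at washout at 0.3668 CPM. Its log2 fold changes of -0.18 post-treatment (SE 0.757) and -0.24 from post-treatment to washout (SE 0.825) had SEs larger than the values.

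**Figure D3:**
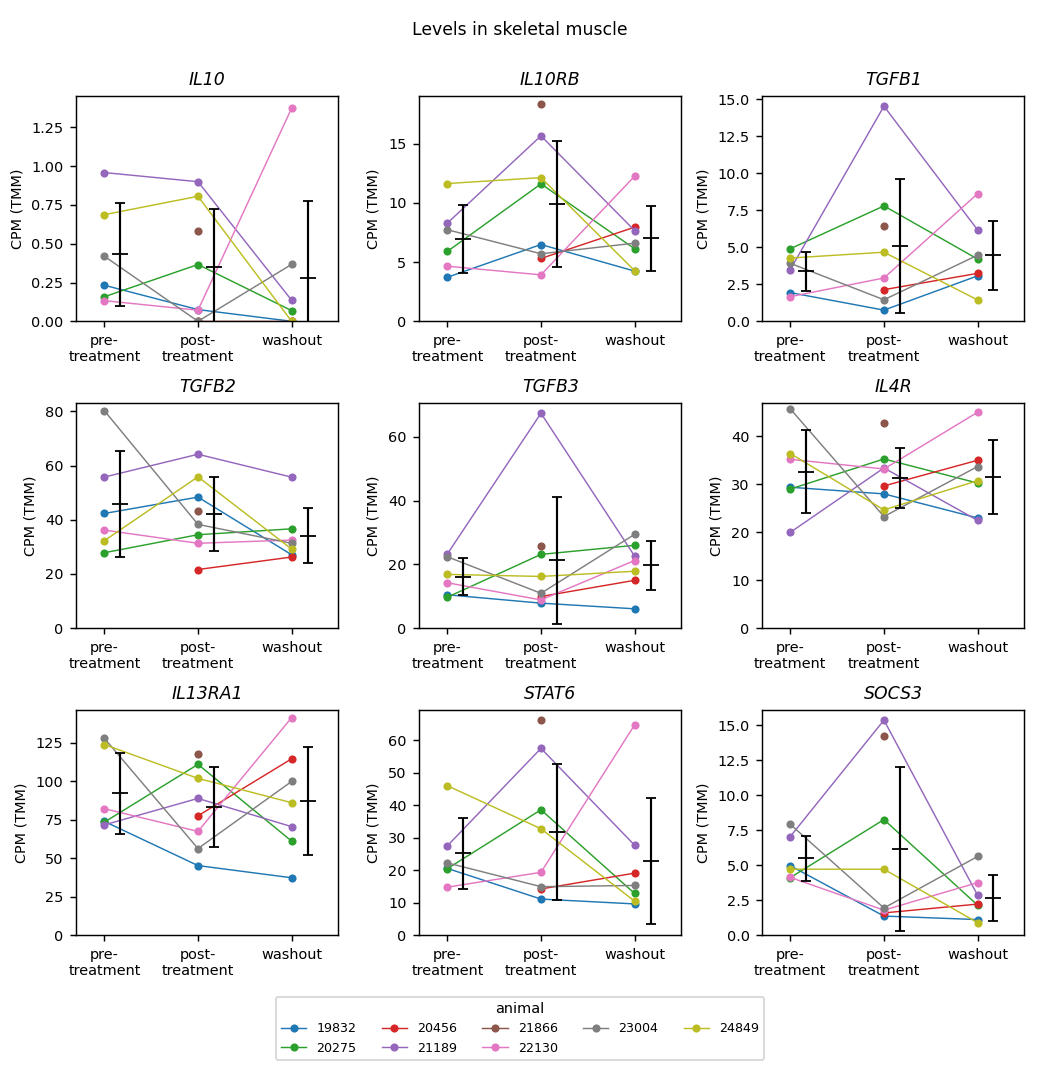
Levels of the 9 genes in SM in CPM (vertical axis, TMM-normalised, from 0) at the 3 time points, with 1 coloured line per animal and black bars for the group mean ± SD (n = 6, 8 and 7). The post-treatment levels of STAT6 spread from 11.09 to 66.31 CPM and those of SOCS3 from 1.358 to 15.38 CPM, both with animals 21189 and 21866 highest.

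Among all genes tested in SM, the share called was 0% post-treatment, 0.19% from post-treatment to washout and 0.0634% at washout compared to pre-treatment. Of the 9 genes 0 were called in each, and 0 had an unadjusted p under 0.05 in edgeR, with 0 called by DESeq2 or limma. Post-treatment values lay between -0.29 (SOCS3, SE 0.484) and 0.33 (IL10RB, SE 0.328), with an adjusted p of 1 for each of the 9. The largest difference was that of SOCS3 at washout compared to pre-treatment. It stood at 4.111 to 7.925 CPM pre-treatment and 0.8893 to 5.624 CPM at washout and was lower in 6 of 6 animals, with a log2 change of -0.99 (SE 0.497, adjusted p = 0.403).

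The SEs in SM were larger than in AT for each of the 9 genes, and levels in post-treatment SM moved with the cell-type markers. STAT6 was at 66.31, 57.53, 38.6 and 32.76 CPM in animals 21866, 21189, 20275 and 24849, the 4 libraries low in fibre markers, and at 11.09 to 19.33 CPM in the other 4. SOCS3 was at 14.28, 15.38, 8.265 and 4.71 CPM in the same animals and at 1.358 to 1.938 CPM in the others. IL10, IL10RB, TGFB1, TGFB3 and IL13RA1 were also higher in each of these 4 libraries than in each of the other 4, while the ranges of TGFB2 and IL4R overlapped. The share of all genes that separate these libraries in the same way was not counted. The separation is therefore no result particular to these genes. Macrophage markers summed to 208.5 to 282.4 CPM in these 4 libraries and to 30.15 to 51.93 CPM in the other 4. The identifier series went largely with this split: of the 4 libraries low in fibre markers 3 (21189, 21866 and 24849) were of the last series and 1 (20275) of the first, and the other 4 were all of the first. With the series in the model 0 of the 9 were called in SM. The part of the cell content of a biopsy in these differences was not tested.

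Without these 4 libraries 0 of the 9 genes were called in SM, but the values moved. SOCS3 post-treatment was then -1.80 (SE 0.371, adjusted p = 0.122) in place of -0.29, TGFB1 -0.85 (SE 0.51) in place of 0.31 and STAT6 -0.73 (SE 0.529) in place of -0.01. SOCS3 at washout compared to pre-treatment was -1.09 (SE 0.268, adjusted p = 0.0505). This set of 4 libraries was chosen after the marker values were seen. The 4 post-treatment libraries left were low in macrophage markers, at 30.15 to 51.93 CPM against 55.41 to 299 CPM in SM pre-treatment. The moved values carry that difference too. The 4 post-treatment libraries left were all of the first identifier series, against 3 of 6 pre-treatment and 0 of 7 washout libraries, so in this subset time point and series cannot be told apart for the comparison with washout and are unevenly mixed for that with pre-treatment.

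**Figure D4:**
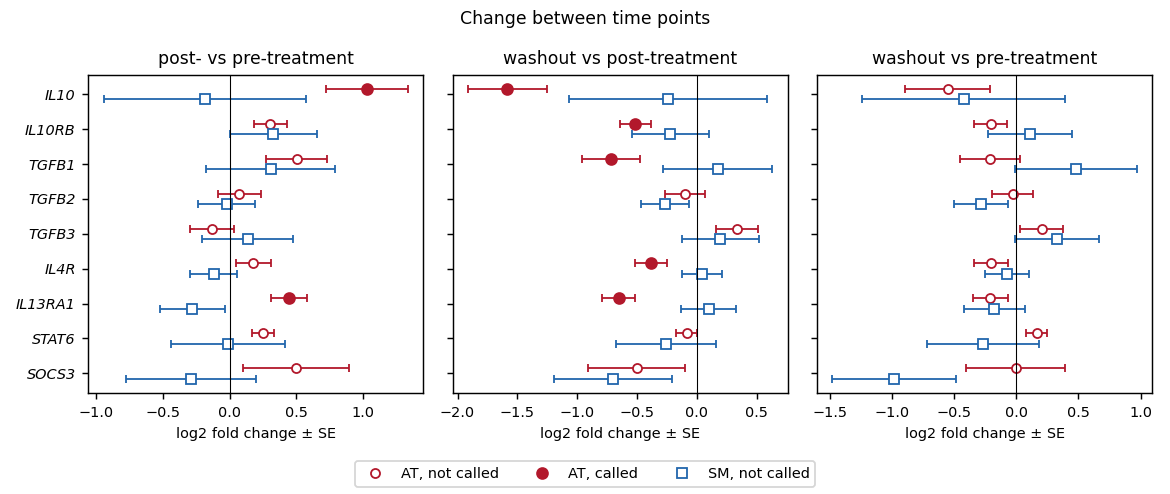
Log2 fold changes ± SE (horizontal axes) of the 9 genes between time points in AT (red circles) and SM (blue squares), with filled symbols for genes called at an adjusted p under 0.05 and beyond 0.26. In AT 2 genes were called post-treatment and 5 from post-treatment to washout, and in SM 0 of the 9 were called, with wider SEs.

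The difference between tissues was tested itself, as the AT change minus the SM change, over 12322 genes. From pre- to post-treatment 0.0487% of genes and 0 of the 9 were called. IL13RA1, with 0.44 in AT and -0.28 in SM, differed by 0.67 (SE 0.263, p = 0.0167, edgeR adjusted p = 0.346), the 1 gene of the 9 with an unadjusted p under 0.05. DESeq2 and limma called 0 of the 9 as well. IL10 differed by 1.23 (SE 0.834, adjusted p = 0.628). Without the 4 post-treatment SM libraries low in fibre markers 3 of the 9 were called: IL13RA1 (1.17, edgeR adjusted p = 0.00883), SOCS3 (2.31, adjusted p = 0.0278) and IL10 (4.53, adjusted p = 0.0326). The post-treatment SM libraries that were left had 0 or 1 counts of IL10, so the size of its value rests on almost no counts there. How far that size depends on the settings of the fit was not tested. In the same fit 1968 of 12208 genes were called, against 6 of 12322 with all libraries. The count of 3 is to be read beside that share. The SM libraries left post-treatment were all of the first identifier series, so these values carry the series as well as the time point. Macrophage marker sums in those libraries also lay under that of every pre-treatment SM library.

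The change from post-treatment to washout differed between the tissues for 22.7% of genes, and for 1 of the 9. IL13RA1 fell in AT and stood at 0.10 in SM (SE 0.231), a difference of -0.76 (SE 0.261, edgeR adjusted p = 0.034). This call was lost where libraries were scaled by their total alone (-0.53, adjusted p = 0.26), a scaling that moved the median of all genes from 0.0315 to 0.247 in this comparison. The identifier series was not in this model, and the first series held 5 of 8 post-treatment and 0 of 7 washout SM libraries. IL4R (-0.44, SE 0.214, adjusted p = 0.143) and TGFB1 (-0.95, SE 0.506, adjusted p = 0.183) were not called. Without the 4 SM libraries 3 of the 9 were called, IL13RA1 (-1.17), TGFB1 (-1.92) and IL10 (-4.35), beside 3092 of all 12208 genes tested. Post-treatment and washout SM then had no identifier series in common, and time point and series cannot be told apart. At washout compared to pre-treatment 17.5% of genes and 0 of the 9 differed, none of the 9 with an unadjusted p under 0.05; DESeq2 and limma called 0 too.

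Before treatment 77.7% of 13463 genes differed between AT and SM, 42.1% higher and 35.5% lower in AT, and 6 of the 9 genes did, a share below that of all genes. IL10RB had the largest difference, at 60.96 to 99.5 CPM in AT and 4.824 to 16.02 CPM in SM when both tissues were normalised together, a log2 difference of 3.11 (SE 0.279, edgeR adjusted p = 2.58e-12). TGFB1 was at 12.1 to 39.1 CPM in AT and 2.29 to 6.572 CPM in SM (2.77, SE 0.403, adjusted p = 1.42e-07). STAT6 was at 130.9 to 179.1 CPM and 20.33 to 63.33 CPM (2.11, SE 0.32, adjusted p = 3.06e-07). The AT and SM libraries did not overlap for any of these 3, as for 47.8% of all genes tested.

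IL10 was at 0.3898 to 3.927 CPM in AT and 0.1832 to 1.329 CPM in SM, a log2 difference of 2.23 (SE 0.596, edgeR adjusted p = 0.000975), and its groups overlapped through the pre-treatment AT library of animal 20275. IL13RA1 was higher in AT by 0.77 (SE 0.207, adjusted p = 0.00112), with ranges that overlapped (149.1 to 272.3 CPM and 95.89 to 173.4 CPM). TGFB2 was the gene of the 9 with more in SM, 37.31 to 108.7 CPM against 13.52 to 26.62 CPM in AT, without overlap (-1.54, SE 0.215, adjusted p = 6.32e-08). TGFB3 (-0.21, SE 0.295, adjusted p = 0.525), IL4R (0.22, SE 0.166, adjusted p = 0.212) and SOCS3 (0.69, SE 0.462, adjusted p = 0.172) were not called. Scaling by library totals alone moved the median of all genes in this comparison from 0.161 to 0.904, and relative to those medians the IL4R and SOCS3 differences, then 0.97 and 1.46 and called, were little moved.

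**Figure D5:**
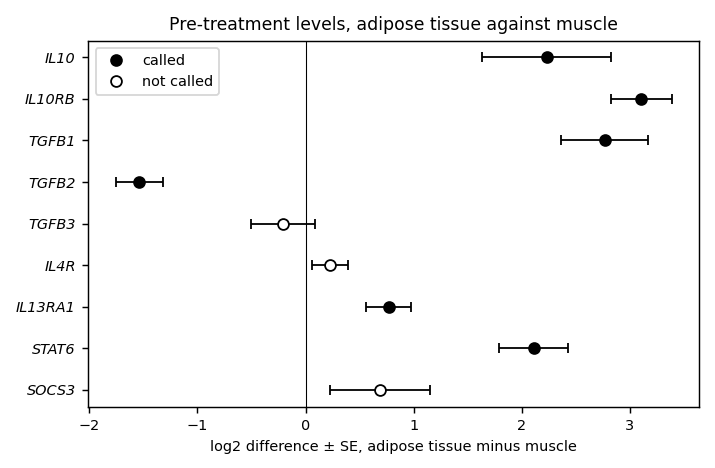
Log2 difference ± SE between AT and SM before treatment (horizontal axis, AT minus SM, 10 against 6 libraries) for the 9 genes, with filled symbols for called genes. IL10RB, TGFB1, IL10, STAT6 and IL13RA1 lay to the right, between 0.77 and 3.11, and TGFB2 to the left at -1.54.

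Over the 6 groups of tissue and time point, jointly normalised, all genes but TGFB2 and TGFB3 had each of the 3 AT means above each of the 3 SM means. Post-treatment AT was highest in each. For IL10, IL10RB, TGFB1, IL13RA1 and STAT6 the step between the lowest AT group and the highest SM group exceeded the larger SD of the pair. For IL4R and SOCS3 that step did not. For IL13RA1 the step from post- to pre-treatment AT (281.1 against 215.3 CPM) also exceeded the larger SD. The other steps within a tissue did not for these 5 genes (IL10, IL10RB, TGFB1, IL13RA1 and STAT6). How many of all genes have this order was not counted. TGFB2 had the reverse order, with the SM groups at 48.19 to 62.06 CPM above the AT groups at 19.51 to 20.92 CPM. Neighbouring groups of TGFB3 and IL4R did not differ beyond their spread at any step, and for SOCS3 the 1 step that did was from pre-treatment SM (7.436 CPM) to washout SM (3.738 CPM).

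The counts in the lists of other pathway genes are to be read against the shares of all genes called in AT, 15.5% post-treatment, 35.4% from post-treatment to washout and 20.5% at washout compared to pre-treatment. Calls of list genes were not examined under the alternatives, except that of SKIL in SM with the identifier series in the model. In AT post-treatment the count over all genes went from 2068 to 805 without animal 22130 and to 998 without animal 20275. Of the IL10 receptor kinases, transcription factors and induced genes, 13 were tested in AT. Post-treatment 0 were called higher and 1 lower: STAT3, the factor through which the IL10 receptor acts, went from 331 ± 57.7 CPM (SD, n = 10) to 252 ± 37.4 CPM (SD, n = 9), a log2 change of -0.40 (SE 0.0775, edgeR adjusted p = 0.00455), opposite in sign to that of IL10. At washout 3 were called lower than post-treatment and 0 higher: these included JAK1, the kinase bound to the IL10, IL4 and IL13 receptors (-0.47, SE 0.0819), and ETV3, a repressor (-0.70, SE 0.139). Both were also called lower at washout compared to pre-treatment, with log2 fold changes of -0.33 and -0.70. The medians of the list were -0.012, 0.042 and -0.14 in the 3 comparisons.

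Among the 5 TGF-beta receptors and coreceptors tested in AT 0 were called post-treatment. 2 fell after treatment ended, from post-treatment to washout: TGFBR3, the coreceptor betaglycan (-0.52, SE 0.135, edgeR adjusted p = 0.00546), and TGFBR1, the signalling receptor kinase (-0.60, SE 0.179, adjusted p = 0.0132). ACVRL1, an endothelial receptor of the family, was higher at washout than pre-treatment (0.33, SE 0.112, adjusted p = 0.0383), beside endothelial markers of which 3 of 7 were called higher and 0 lower in that comparison. Of the 10 latency and activation genes tested in AT, 0 were called post-treatment. FBN1, the matrix protein fibrillin 1 to which latent TGF-beta is tethered, fell from post-treatment to washout (-0.61, SE 0.212, adjusted p = 0.0309), and ITGAV, an integrin chain that activates it, was lower at washout than pre-treatment (-0.67, SE 0.134, adjusted p = 0.00113).

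The 10 SMADs and feedback genes tested split both ways in AT post-treatment, with 2 called higher and 2 lower. TGIF1, a SMAD corepressor, rose by 0.56 (SE 0.102, edgeR adjusted p = 0.00279) and SMAD4, the shared SMAD, by 0.27 (SE 0.0741, adjusted p = 0.0209), while the inhibitory SMAD6 fell by 0.43 (SE 0.138, adjusted p = 0.0407). From post-treatment to washout 4 fell and 1 rose. SKIL, which encodes the SMAD repressor SnoN, fell from 22.3 ± 2.51 CPM (SD, n = 9) to 8.11 ± 5.85 CPM (SD, n = 8), a log2 change of -1.65 (SE 0.253, adjusted p = 9.89e-05). The signal-carrying SMAD2 fell by 0.41 (SE 0.0669) and SMURF2, a ubiquitin ligase that limits the pathway, fell by 0.56 (SE 0.129).

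SKIL was also the 1 gene of these lists called in SM, where it changed in the opposite direction. It went from 8.04 ± 2.40 CPM pre-treatment (SD, n = 6) and 8.13 ± 3.14 CPM post-treatment (SD, n = 8) to 25.8 ± 8.35 CPM at washout (SD, n = 7), with log2 fold changes of 1.71 (SE 0.226, edgeR adjusted p = 0.011) and 1.73 (SE 0.211, adjusted p = 0.00815). In AT it was at 25.0 ± 7.73 CPM pre-treatment (SD, n = 10) and lower at washout (log2 fold change -1.69, SE 0.251, adjusted p = 7.74e-05). The AT change minus the SM change of SKIL was -3.42 from post-treatment to washout (SE 0.347, adjusted p = 7.29e-08), while the fibre and adipocyte marker sums of each washout library were those of its labelled tissue. The first number series of identifiers held 3 of 6 pre-treatment, 5 of 8 post-treatment and 0 of 7 washout SM libraries, and with the series in the model SKIL was still called higher at washout, by 1.63 compared to pre-treatment (SE 0.27, edgeR adjusted p = 0.0119) and 1.51 compared to post-treatment (SE 0.266, adjusted p = 0.00462). That fit called 2648 genes in SM from post-treatment to washout in place of 24, and 1353 at washout compared to pre-treatment in place of 8.

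Of the 9 TGF-beta induced genes tested in AT, 2 rose and 1 fell post-treatment. COL1A1 (1.02, SE 0.297, edgeR adjusted p = 0.0285) and COL1A2 (0.81, SE 0.256, adjusted p = 0.0387), the chains of type I collagen, rose, and PMEPA1, a feedback inhibitor, fell by 0.49 (SE 0.142, adjusted p = 0.0285). From post-treatment to washout 5 fell and 2 rose, with COL1A1 (-1.09, SE 0.312) and TGFBI, a secreted matrix protein (-0.77, SE 0.157), among the falls. Progenitor and fibroblast markers, a list that itself holds COL1A1, summed in AT to 13220 to 29970 CPM pre-treatment, 17220 to 40820 CPM post-treatment and 10690 to 36250 CPM at washout. Of these 9 markers 7 were positive and 2 called higher post-treatment, and 3 were called lower from post-treatment to washout. The 4 adipocyte markers summed to 15560 to 32430, 9439 to 28010 and 10260 to 29730 CPM, with 0 of 4 positive and 2 called lower post-treatment. The part of either cell type in the collagen values was not tested. The list had 0 of 9 called at washout compared to pre-treatment. In SM 0 of 9 were called in each comparison, with medians of 0.66, -0.43 and 0.23.

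The 6 other genes of the IL4 and IL13 route tested in AT had 1 called post-treatment. SOCS1, the inhibitor of IL4 receptor signalling, went from 1.48 ± 0.224 CPM (SD, n = 10) to 2.78 ± 1.23 CPM (SD, n = 9), a log2 change of 0.90 (SE 0.22, edgeR adjusted p = 0.0144), and fell to 0.927 ± 0.353 CPM at washout (SD, n = 8; -1.59, SE 0.245, adjusted p = 0.000101). PTPN6, the phosphatase SHP-1 of blood cells, fell by 0.72 from post-treatment to washout (SE 0.263, adjusted p = 0.0392). Of the 14 genes linked to STAT6 and to alternatively activated macrophages, 0 were called post-treatment, with 11 positive and a median of 0.27. From post-treatment to washout 5 of the 14 fell and 0 rose, a share near the 35.4% of all genes, with MRC1, the mannose receptor, at -1.84 (SE 0.311, adjusted p = 0.00024), the lectin receptor gene CD209 at -1.12 (SE 0.281) and F13A1, a coagulation factor subunit of macrophages, at -0.82 (SE 0.212). The same 3 were lower at washout than pre-treatment, F13A1 at -1.36, MRC1 at -1.17 and CD209 at -0.93, so unlike IL10 and IL13RA1 they passed the test in that comparison; a difference between the genes was not tested.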

How the data were processed

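RNA-seq libraries of AT and SM biopsies (TruSeq stranded mRNA, paired-end reads) were made and processed by the authors, with STAR alignment to the MacaM assembly. The authors deposited raw gene counts for 48 of 51 labelled samples, and the 3 SM samples without counts (pre-treatment of 20456 and 21866, washout of 21866) were not analysed here. Of 16103 entries, 70 repeats of a gene were dropped, which left 16033. Counts are per gene, not per length, so levels were not compared between genes. Tissue, time point and animal were taken from the labels.

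A gene was tested if 10% or more of a tissue's libraries reached 0.5 CPM. edgeR 4.0.16 (R 4.3.3) was used for TMM and robust quasi-likelihood tests with terms for time point and animal, separately in each tissue. Differences between tissues were tested in 1 fit with animal within tissue. limma 3.58.1 (voomWithQualityWeights) and DESeq2 1.42.0 were alternatives. Log2 CPM used a prior count of 2. Correlations were computed in SciPy and NumPy with exact permutation of animals. Depth gave at least 10 counts per AT library for each of the 9 genes. Counting error adds to the spread where counts were low: for IL10 in both tissues, and for TGFB1 and SOCS3 in SM, with lowest counts of 10 and 16.

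Same-animal libraries of different time points correlated (after removal of time point means) with a median r of 0.352 in AT (25 pairs) and 0.279 in SM (19 pairs), against -0.0354 and -0.0464 for different animals. The pairing comes from the labels.

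Members and lists were chosen with earlier results of these data known. Named were every member, up to 3 called genes of lowest p per pathway list and comparison with a mean of at least 1 CPM, and the 3 genes most like IL10, TGFB1 and STAT6 in AT. Some genes that this rule names are left out of the text and are not reported here.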

Additional observations from a re-analysis of the deposited data

Results flagged for a closer look

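In 54 sets of values, 1 gene in 1 group each, 9 had a highest or lowest library whose gap to the next passed Dixon's 95% critical value. Chance flags about 1 in 20 sets where values are normally distributed and independent. These were unlogged CPM values in sets that share libraries, so that rate need not hold here. Animal 20275 stood apart in post-treatment AT, with SOCS3 at 90.96 CPM (next 19.14) and IL13RA1 at 540.3 CPM (next 395.4), in the library with the highest macrophage marker sum, 7684 CPM. Animal 23004 stood apart in AT at washout, with TGFB1 at 76.52 CPM (next 38.15) and IL4R at 94.03 CPM (next 62.47), in the library with the highest washout macrophage marker sum, 3759 CPM. Animal 22130 stood apart in SM at washout, with IL10 at 1.374 CPM (next 0.3668) and STAT6 at 64.76 CPM (next 27.69), beside the highest macrophage marker sum in SM, 510.7 CPM. The part of the macrophage content in these values was not tested.

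Animal 21189 had the highest TGFB3 level in post-treatment SM, 67.35 CPM (next 25.81), in the library lowest in fibre markers, and the highest TGFB2 level in SM at washout, 55.71 CPM (next 36.65). Animal 20261 had the highest pre-treatment TGFB3 level in AT, 38.9 CPM (next 26.12).

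The change of IL13RA1 from post-treatment to washout differed between the tissues, by -0.76 on the log2 scale for AT minus SM (SE 0.261, edgeR adjusted p = 0.034). Of all genes tested, 22.7% were called in this comparison. With libraries scaled by their total alone the IL13RA1 call was lost (edgeR adjusted p = 0.26). The identifier series was not in this model, and the first series held 5 of 8 post-treatment and 0 of 7 washout SM libraries.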

How the results depend on the processing

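Of 1345 log2 fold changes of single genes under the alternatives, 0 changed sign while called, 37 lost and 12 gained a call, and 67 uncalled values moved by more than their SE. In AT post-treatment 2 of the 9 genes were called, against 0 with voomWithQualityWeights, with only the 2 time points compared, in the last identifier series alone or without the pre-treatment library of animal 20275, and 0 to 2 with 1 animal left out. From post-treatment to washout 5 were called, against 3 with the identifier series in the model, 2 in the last series alone and 3 to 5 with 1 animal left out. Without the replicate block, that is unpaired, 3 were called from post-treatment to washout, and 2 of the 9 post-treatment as with it; the block changed no other count. At washout compared to pre-treatment 1 was called with library size only, against 0, as with 1 animal left out. The difference between tissues from post-treatment to washout was called for 0 with library size only and for 3 without the 4 post-treatment SM libraries low in fibre markers, against 1. The post-treatment one was called for 3 without those libraries, against 0. Over all genes the counts without those libraries were 3092 and 1968 of 12208, against 2794 and 6 of 12322. In SM 0 were called under each alternative.

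Over all genes the count called in AT post-treatment was 2068, against 805 without animal 22130 and 998 without animal 20275. In SM from post-treatment to washout it was 24, against 359 with DESeq2, 216 unpaired and 2648 with the identifier series in the model. With library size only, 2313 genes were higher and 590 lower in AT at washout than before treatment, where TMM gave 1671 and 1064, and 8313 higher and 2364 lower in AT than SM, against 5669 and 4786. The causes were not tested. Alternatives from edgeR's earlier quasi-likelihood method and without the washout library of animal 23004 or the 4 SM libraries were chosen after seeing the data.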
